A study of Mus musculus with 4 samples.

Results

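The enzymes that carry glutamine nitrogen into citrulline, ornithine, arginine and urea were compared between stem cells and villus cells of the mouse small intestine. The members were 9 genes taken from the pathway: Cps1, Nags, Glud1, Otc, Oat, Ass1, Asl, Arg1 and Arg2. A gene counted as measured where a probe set carried exactly 1 gene symbol in the platform annotation, and the probe set with the highest mean stood for the gene. By this rule 8 of the 9 members were measured, among 12393 genes in all. Ass1, the argininosuccinate synthase gene, was not analysed here because its 1 probe set was annotated to several genes.

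Gene expression was measured on 4 Affymetrix arrays. The stem group (2 arrays) held RNA of Lgr5(hi) cells sorted by flow cytometry from wild-type C57BL/6 mice, Lgr5 being a receptor of crypt base stem cells. The enterocyte group (2 arrays) held RNA of villus cells released with EDTA from C57BL/6 mice in which Atoh1 had been deleted conditionally in the gut epithelium, Atoh1 being the transcription factor that secretory cells need. All 4 samples came from proximal intestinal epithelium of mice aged 4 to 6 weeks, and all 4 labels give tamoxifen at 1 mg per day for 5 days with a wait of 5 days, the wild-type samples included. The promoter that drives the recombinase, and whether animals were pooled, are not stated in the labels. Replicates are called biological in the labels without naming animals, so p-values measure the spread between these samples. The groups differ at once in cell type, in genotype and in how the cells were isolated, which cannot be told apart, and neither can fewer cells of a type and less RNA per cell.

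In the small intestine, glutamine is a main fuel of the absorptive cells, and its nitrogen leaves the tissue in part as citrulline, from which the kidney makes arginine. In mitochondria, carbamoyl phosphate (Cps1, activated by N-acetylglutamate from Nags) is joined by Otc to ornithine, which Oat exchanges with the glutamate and proline branch. In the cytosol Asl releases arginine, and the arginases split arginine into ornithine and urea.

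Arg2 and Nags were higher in the enterocyte arrays and Cps1, Oat and Arg1 were lower, while Otc, Glud1 and Asl did not pass the test. Arg2 was 20.1-fold higher, the only member with a change above 3-fold in either direction. Over the measured members, 2 of 8 rose against 18.2% of all genes, and 3 of 8 fell against 22.4% of all genes, with a limma adjusted p under 0.05 as the threshold. In all 5 of 8 members were called, beside 40.6% of all genes. The members' median log2 difference, enterocyte minus stem, was -0.43, beside -0.00261 over all genes. The enterocyte and stem values did not overlap in 7 of the 8 members, Asl being the exception, against 65.3% of all genes.

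**Figure D1:**
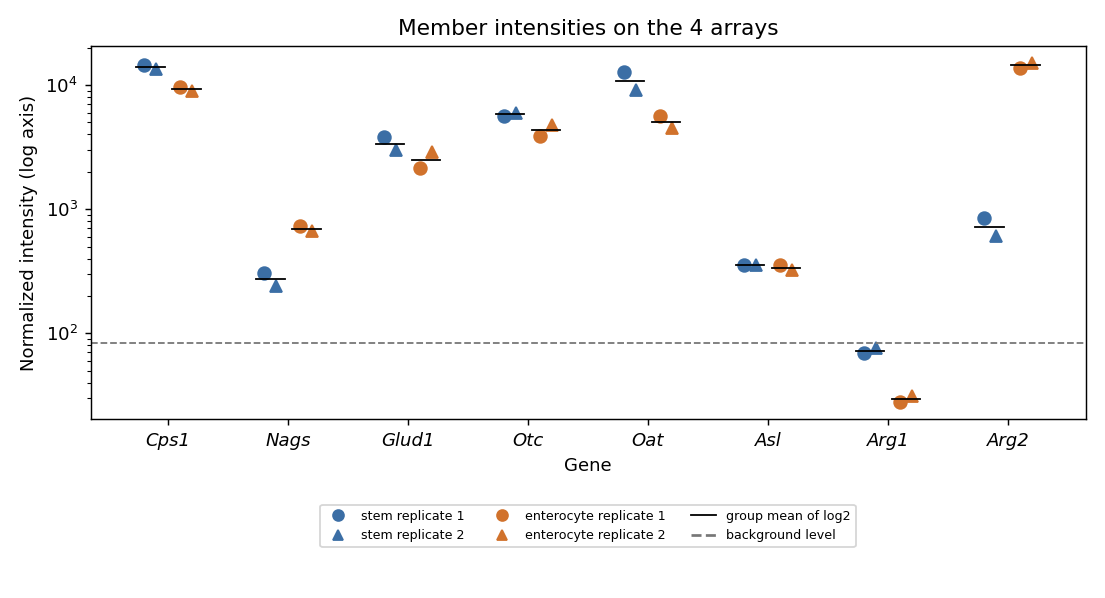
Normalized intensity (log axis) of the 8 measured members on each array, with stem arrays in blue and enterocyte arrays in orange, circles for replicate 1 and triangles for replicate 2, black bars for group means of log2 values and a dashed line at the background level. Arg2 and Nags lie higher on both enterocyte arrays, Asl overlaps between the groups, and Arg1 lies under the background level on all 4 arrays; levels of different genes come from different probe sets and are not comparable.

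The groups' labels were set against marker genes. All 15 measured enterocyte markers were higher in the enterocyte arrays and 10 of 11 stem cell markers were lower, among them Lgr5, which was used for the sort. All 6 goblet, 2 of 3 Paneth and 5 of 7 enteroendocrine markers were lower in the enterocyte arrays, with summed goblet intensity at 22805 to 24795 on the stem and 495 to 674 on the enterocyte arrays. All 10 lymphocyte markers were higher, with a summed intensity of 634 to 891 on the stem and 8658 to 11688 on the enterocyte arrays. Of 5 tuft cell markers 4 were higher, with sums of 372 to 564 and 2427 to 3687. The part of these other cells in the results below was not tested. The median intensity of an array was 102 to 111 units. A background level of 83.1 units (log2 6.38) was set at the 90th percentile of 26 genes of other organs. These were not all silent here, as Gcg read 209 and 480 and Mbp 1142 and 976 on the stem arrays. Without the 4 listed genes that differed between the groups, the level was 63.1 units (log2 5.98). The stem means of Aldh4a1 and Ddah2 and the enterocyte means of Gpt2, Sirt4 and Slc7a6 lay above 63.1 units. What is said below of background and least folds for these genes holds for 83.1 units only.

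Carbamoyl phosphate synthetase, Cps1, which commits ammonia to citrulline in the mitochondrion, was far above the array median on every array. Its intensity was 14405 and 13492 on the stem arrays and 9614 and 8998 on the enterocyte arrays. The groups did not overlap, and the enterocyte arrays were lower (-0.58 ± 0.07 SE on the log2 scale, 2 arrays in each group, limma adjusted p = 0.013). Nags, which makes the N-acetylglutamate that Cps1 requires, moved the other way. Its intensity was 308 and 241 on the stem arrays and 728 and 664 on the enterocyte arrays, a rise of 2.55-fold (1.35 ± 0.16 SE, adjusted p = 0.0114 by limma). Both enterocyte values of Nags lay above both stem values.

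The promoter window of Nags is shown because it was 1 of only 2 members that rose, and those of Oat and Otc for comparison with members that were lower or not past the test. Windows of 300 bases ending 50 bases after the annotated start were taken from RefSeq (GRCm38.p6), which held one for 4 of the 8 measured members, Glud1 being the fourth. Cps1, Asl, Arg1 and Arg2 had no entry. Capitals mark matches on either strand to 9 short motifs: the TATA box TATAAA, the GC box GGGCGG, the CCAAT box, the HNF4 motif CAAAGTCCA, the C/EBP motif TTGCNNAA, the GATA motif AGATAA, the CDX motif TTTATG, the TCF/LEF motif ATCAAAG and the cyclic AMP response element TGACGTCA. The sequences run 5′ to 3′ on the gene's strand, at chr11:102145263-102145562 (plus strand) for Nags, chr7:132576349-132576648 (minus strand) for Oat and chrX:10252055-10252354 (plus strand) for Otc.
Nags: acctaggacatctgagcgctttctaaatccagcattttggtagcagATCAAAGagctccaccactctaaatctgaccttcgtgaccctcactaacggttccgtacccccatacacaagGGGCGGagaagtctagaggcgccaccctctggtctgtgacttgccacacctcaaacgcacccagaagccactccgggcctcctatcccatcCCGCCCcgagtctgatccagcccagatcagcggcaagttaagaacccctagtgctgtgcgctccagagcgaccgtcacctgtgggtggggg
Oat: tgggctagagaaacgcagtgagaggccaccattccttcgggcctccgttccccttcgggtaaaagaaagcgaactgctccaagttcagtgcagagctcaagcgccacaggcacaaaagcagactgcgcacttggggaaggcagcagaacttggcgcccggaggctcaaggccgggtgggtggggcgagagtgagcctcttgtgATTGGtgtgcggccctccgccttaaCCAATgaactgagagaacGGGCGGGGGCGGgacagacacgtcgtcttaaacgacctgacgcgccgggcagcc
Otc: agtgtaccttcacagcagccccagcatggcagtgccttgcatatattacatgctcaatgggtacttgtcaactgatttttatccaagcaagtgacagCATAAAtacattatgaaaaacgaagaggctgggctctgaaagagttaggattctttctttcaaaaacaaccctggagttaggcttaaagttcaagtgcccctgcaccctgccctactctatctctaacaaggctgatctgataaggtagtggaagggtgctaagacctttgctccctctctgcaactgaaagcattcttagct
The Nags window held GC boxes at -132 and -41 and an ATCAAAG match at -204, counted from the start base as 0. The Oat window held GC boxes at -4 and 2 and CCAAT boxes at -47 and -22. The Otc window held a TTTATG match at -153 and no GC or CCAAT box. Its GC content was 44.3%, against 57.7% for Nags and 61.7% for Oat. Among 12567 windows of genes on the array, 55.4% held a GC box, 37.1% a CCAAT box, 7.51% TTTATG and 2.82% ATCAAAG, and the median GC content was 59.0%. No matches overlapped between motifs, and a match describes letters only.

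Glud1, the glutamate dehydrogenase that releases ammonia from glutamate, did not pass the test. Its brighter probe set read 3788 and 3000 on the stem arrays and 2152 and 2871 on the enterocyte arrays. The stem values were both above the enterocyte values, with a wide spread within each group. The log2 difference was -0.44 ± 0.22 SE with a 95% interval of -1.10 to 0.22 (adjusted p = 0.223 by limma), so a difference of either sign could not be told from these arrays. The dimmer probe set gave -0.15 ± 0.10 SE.

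Otc, which makes citrulline from ornithine and carbamoyl phosphate, read 5659 and 5955 on the stem arrays and 3913 and 4772 on the enterocyte arrays. The enterocyte values were both below the stem values and spread more widely. The log2 difference of -0.43 ± 0.13 SE had a 95% interval of -0.81 to -0.04 before adjustment and an adjusted p of 0.0843 by limma. A second probe set of Otc read 1912 and 1851 against 1530 and 1481, and in a fit over all 20380 probe sets it was past the threshold (-0.32 ± 0.06 SE, adjusted p = 0.0284 by limma). The third, at 47.5 and 33.0 on the stem and 32.3 and 31.4 on the enterocyte arrays, lay under the background level throughout. The mean over the 3 probe sets was past the threshold by a narrow margin (-0.35, adjusted p = 0.0498 by limma), and quantile normalization also gave a call (-0.59, adjusted p = 0.0242 by limma).

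Oat, the mitochondrial aminotransferase that links ornithine with pyrroline-5-carboxylate, fell 2.15-fold. Its intensity was 12839 and 9130 on the stem arrays and 5644 and 4485 on the enterocyte arrays. Every enterocyte value was below every stem value, but the stem replicates differed more from each other (SD 0.35, log2) than those of most members did. The log2 difference was -1.11 ± 0.24 SE, close to the threshold (adjusted p = 0.0417 by limma), and with the dimmest probe set taken for every gene the same values of Oat no longer passed (adjusted p = 0.0585 by limma). Of the genes tested, 1584 had a more negative difference.

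Asl, the argininosuccinate lyase that releases arginine and fumarate, was level across the arrays. It read 353.2 on both stem arrays and on enterocyte replicate 1, and 324.2 on enterocyte replicate 2. The identical values arise in the deposited table and make the spread between replicates look smaller than it may be. The log2 difference was -0.06 ± 0.07 SE, with a 95% interval of -0.28 to 0.15 (adjusted p = 0.538 by limma), and it turned to 0.09 under quantile normalization.

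Arg2, the mitochondrial arginase found in many tissues outside the liver, had the largest change of the members. Its intensity was 855 and 603 on the stem arrays and 13810 and 15081 on the enterocyte arrays. The lowest enterocyte value was thus far above the highest stem value, and the log2 difference was 4.33 ± 0.21 SE (95% interval 3.69 to 4.97 from 2 arrays in each group, adjusted p = 0.00341 by limma). Of 12393 genes, 82 had a larger rise. The second probe set of Arg2 read 810 and 447 on the stem and 10049 and 10596 on the enterocyte arrays, a difference of 4.10 ± 0.35 SE (adjusted p = 0.00794 by limma over all probe sets). The lymphocyte and tuft cell markers given above were higher on the same arrays, and their part in the rise was not tested.

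Arg1, the cytosolic arginase of the liver urea cycle and of some macrophages, was dim and moved opposite to Arg2. It read 69.3 and 76.1 on the stem arrays and 27.9 and 31.5 on the enterocyte arrays. All 4 values were under the background level, so no fold is given, although the groups did not overlap and the log2 difference was -1.29 ± 0.10 SE (adjusted p = 0.00587 by limma). With the background set without the 4 genes of other organs that themselves differed between the groups, a step chosen after the data were seen, the level fell to 63.1 units and Arg1 was at least 1.15-fold lower. Of 12 macrophage and myeloid markers 10 were not called and 2 fell, namely Lyz2 and Cd68. In both groups 8 of the 12 were under the background level. The summed intensity of the 12 was 2161 to 3021 on the stem and 578 to 615 on the enterocyte arrays. The part of these markers in the Arg1 difference was not tested. The complement genes C1qa, C1qb and C1qc, which mark tissue macrophages, were under the background level on all 4 arrays. Of 6 hepatocyte markers 4 were under that level in both groups, the defining gene Alb among them, and 2, Hpd and Ttr, were lower in the enterocyte arrays. The summed intensity of these 6 was 2854 to 3011 on the stem and 442 to 590 on the enterocyte arrays. On the stem arrays this sum came mainly from the 2 genes not under that level. It had the direction of Arg1, Cps1 and Oat, and its part in their differences was not tested.

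**Figure D2:**
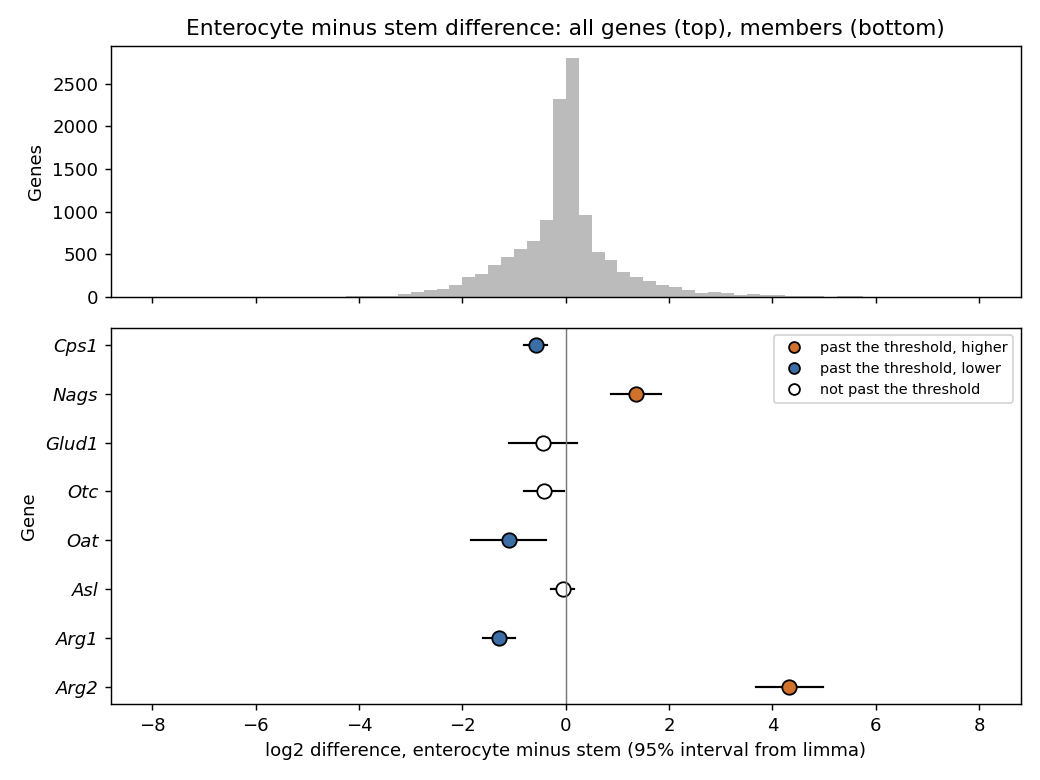
Top, number of genes by log2 difference, enterocyte minus stem, over all 12393 genes; bottom, the same difference for the 8 measured members with 95% intervals from limma, filled where past the threshold (orange higher, blue lower). Arg2, at 4.33, lies in the far right tail of the distribution, and the intervals of Glud1 and Asl cross 0.

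All 5 calls rested on having both replicates of each group. Leaving out any 1 array ended every member's call while each kept its direction, which could not turn because these groups did not overlap. With either enterocyte array left out some of the 12393 genes still passed, though fewer than with all 4 arrays. The adjusted p was then 0.0524 to 0.0618 for Arg2, 0.0628 to 0.121 for Nags, 0.0576 to 0.0819 for Arg1, 0.0743 to 0.0984 for Cps1 and 0.115 to 0.229 for Oat. With either stem array left out 0 of the 12393 genes passed by limma (4675 and 4817 at an unadjusted p under 0.05). Centring each array on the median of 8 measured reference genes moved every difference by -0.70, the all-gene median included, and then 6 of 8 members were lower against 73.3% of all genes, with Otc, Glud1 and Asl added to the 3 above. Arg2 (3.63) and Nags (0.65) stayed higher past the threshold under that centring, beside 10.1% of all genes. A second centring, on the median difference of the same reference genes and added with the data in view, gave the same counts of 2 higher and 6 lower members, beside 12.8% and 65.4% of all genes. Of the 8 reference genes 4 were themselves higher in the enterocyte arrays as deposited, so neither centring rests on stable genes alone.

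**Figure D3:**
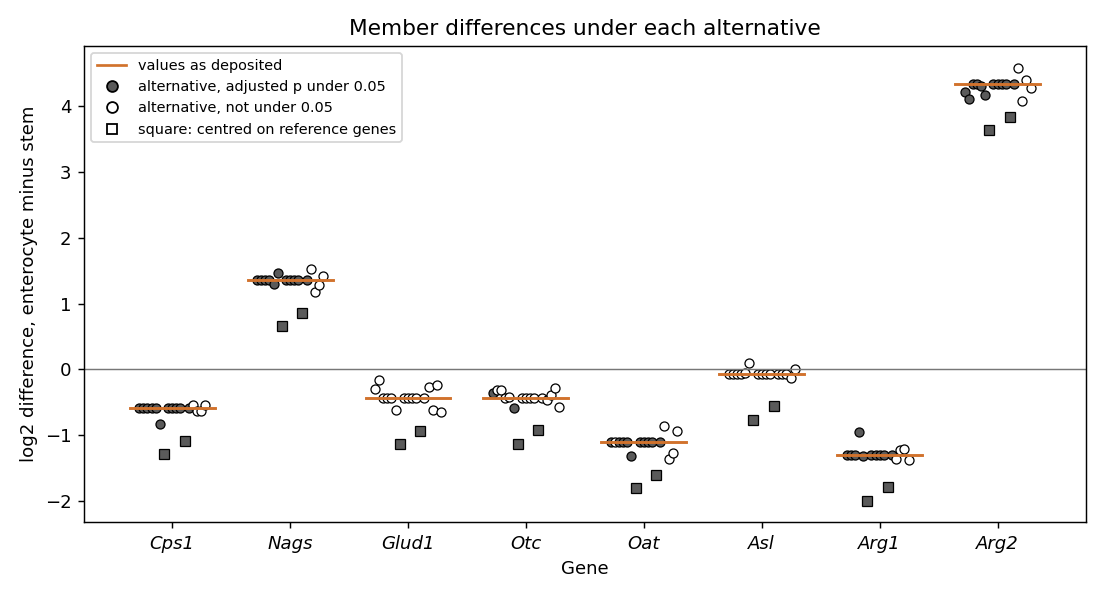
Log2 difference, enterocyte minus stem, of each measured member as deposited (orange line) and under each processing alternative (points; filled where the adjusted p was under 0.05, squares where arrays were centred on reference genes). Arg2 stays between 3.63 and 4.58, every called member keeps its sign, and the open points of the called members are mostly those with 1 array left out.

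Genes around the cycle were described by lists of the enzymes and carriers that feed or drain it. Of 60 measured genes over 6 lists, 18 rose and 15 fell, and 27 were not called, against 18.2% and 22.4% of all genes. Reference gene centring counts and medians given below stand beside 10.1% of all genes higher, 73.3% lower and an all-gene median of -0.70. Signs below are those of the deposited values, and where a gene that passed turned its sign under another scaling, this is said beside it. Like those of the members, none of these calls held with either stem array left out.

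Glutamine and glutamate genes went both ways: 5 of 12 rose, 5 fell and 2 were not called (median -0.12, or -0.82 with 2 higher and 7 lower under reference gene centring). The transaminases of the cytosol rose most. Got1, which exchanges aspartate and glutamate, read 213 and 188 on the stem arrays and 3360 and 3071 on the enterocyte arrays, a rise of 16.1-fold (4.00 ± 0.10 SE, adjusted p = 0.00261 by limma). Gpt, the alanine transaminase, read 253 and 262 against 3490 and 3672, a rise of 13.9-fold (3.80 ± 0.06 SE). The mitochondrial partner Got2 did not pass (-0.18 ± 0.10 SE). Glul, glutamine synthetase, read 2172 and 1810 against 671 and 602, a fall of 3.12-fold (-1.64 ± 0.13 SE, adjusted p = 0.00603 by limma). Cad, whose carbamoyl phosphate serves pyrimidine synthesis in the cytosol, read 546 and 556 against 130 and 122 and fell 4.38-fold (-2.13 ± 0.06 SE). The differences of the 2 carbamoyl phosphate synthases, Cps1 and Cad, thus had the same sign and unequal sizes, -0.58 and -2.13. Ppat of purine synthesis fell 3.83-fold, Ctps of CTP synthesis 3.60-fold, and Asns, asparagine synthetase, from 860 and 835 to 454.5 and 394. Gfpt1, which also takes nitrogen from glutamine, was higher as deposited (0.65) and -0.05 under reference gene centring, and Gclc, of glutathione synthesis, was 0.45 and -0.25. Gpt2, also among the rises, had both group means under the background level.

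In the proline and ornithine branch 3 of 5 genes fell and 1 rose, with 1 not called (median -0.48, or -1.17 under reference gene centring). Aldh18a1, which makes pyrroline-5-carboxylate from glutamate and so feeds ornithine through Oat, read 6729 and 6223 on the stem arrays and 3620 and 3739 on the enterocyte arrays. It fell 1.76-fold (-0.81 ± 0.07 SE, adjusted p = 0.0067 by limma), the same direction as Oat. Prodh, proline dehydrogenase, read 1143 and 1231 against 606 and 392 and fell 2.43-fold (-1.28 ± 0.26 SE), and the reductase gene Pycrl fell 1.39-fold. Aldh4a1, which oxidises pyrroline-5-carboxylate to glutamate, read 55.9 and 88.3 against 217 and 190, at least 2.37-fold higher with the lower stem value raised to the background level.

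In the list of mitochondrial transport and bicarbonate 3 of 7 genes rose, all of them carriers, and the other 4 were not called (2 higher and 4 lower under reference gene centring). Slc25a22, a glutamate carrier, rose 4.15-fold (2.05 ± 0.08 SE) from 246 and 269 to 1096 and 1041. Slc25a13, the aspartate and glutamate carrier citrin, rose 2.38-fold (1.25 ± 0.07 SE) from 160 and 175 to 396 and 399. Slc25a15, which exchanges ornithine for citrulline, read 2946 on both stem arrays and 3652 and 3919 on the enterocyte arrays, a rise of 1.28-fold (0.36 ± 0.06 SE, adjusted p = 0.0274 by limma) that turned to -0.34 under reference gene centring. The mitochondrial carbonic anhydrases Car5a and Car5b held identical values on all 4 arrays, under the background level.

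Among carriers of these amino acids in the plasma membrane 5 of 15 rose and 3 fell, and 7 were not called, while under reference gene centring 5 were higher and 8 lower. The rises were in the cystine and dibasic amino acid transporter of the brush border, Slc7a9 and Slc3a1, and in the basolateral exchangers Slc7a7 and Slc7a8 with their heavy chain Slc3a2. Slc7a9 read 277 and 243 on the stem arrays and 6264 and 5517 on the enterocyte arrays (22.7-fold, 4.50 ± 0.12 SE, adjusted p = 0.00261 by limma), and Slc3a1 rose 11.7-fold. Slc7a7, which exports arginine and lysine, rose 7.72-fold from 324 and 254 to 2308 and 2130. Slc7a8 rose 3.94-fold and their common heavy chain Slc3a2 3.74-fold. The falls were in glutamine and neutral amino acid carriers, Slc1a5 by a factor of 6.06 and Slc38a2 by 3.67, and in Slc7a6, another partner of Slc3a2, by 3.82 as deposited, its enterocyte values of 66.3 and 60.8 being under the background level (at least 2.92-fold lower).

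Of genes that use ornithine or arginine 3 of 14 rose, 2 fell and 9 were not called, while under reference gene centring 2 were higher and 10 lower. Odc1, ornithine decarboxylase of polyamine synthesis, was level at 2375 and 2288 on the stem and 2586 and 2370 on the enterocyte arrays (0.09 ± 0.07 SE, adjusted p = 0.432 by limma), and its sign turned under centring and quantile normalization. Azin1, a protein that protects ornithine decarboxylase from its antizyme, rose 5.57-fold (2.48 ± 0.17 SE), and Sat1, which acetylates polyamines, rose 3.02-fold (1.59 ± 0.07 SE). Srm, spermidine synthase, fell 4.12-fold (-2.04 ± 0.17 SE) and Agmat, annotated as agmatinase, 3.16-fold (-1.66 ± 0.09 SE). Ddah2 was at least 1.21-fold higher (0.37) and -0.33 under reference gene centring. The nitric oxide synthases Nos1, Nos2 and Nos3 and the creatine synthesis genes Gatm and Gamt were under the background level on all 4 arrays.

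**Figure D4:**
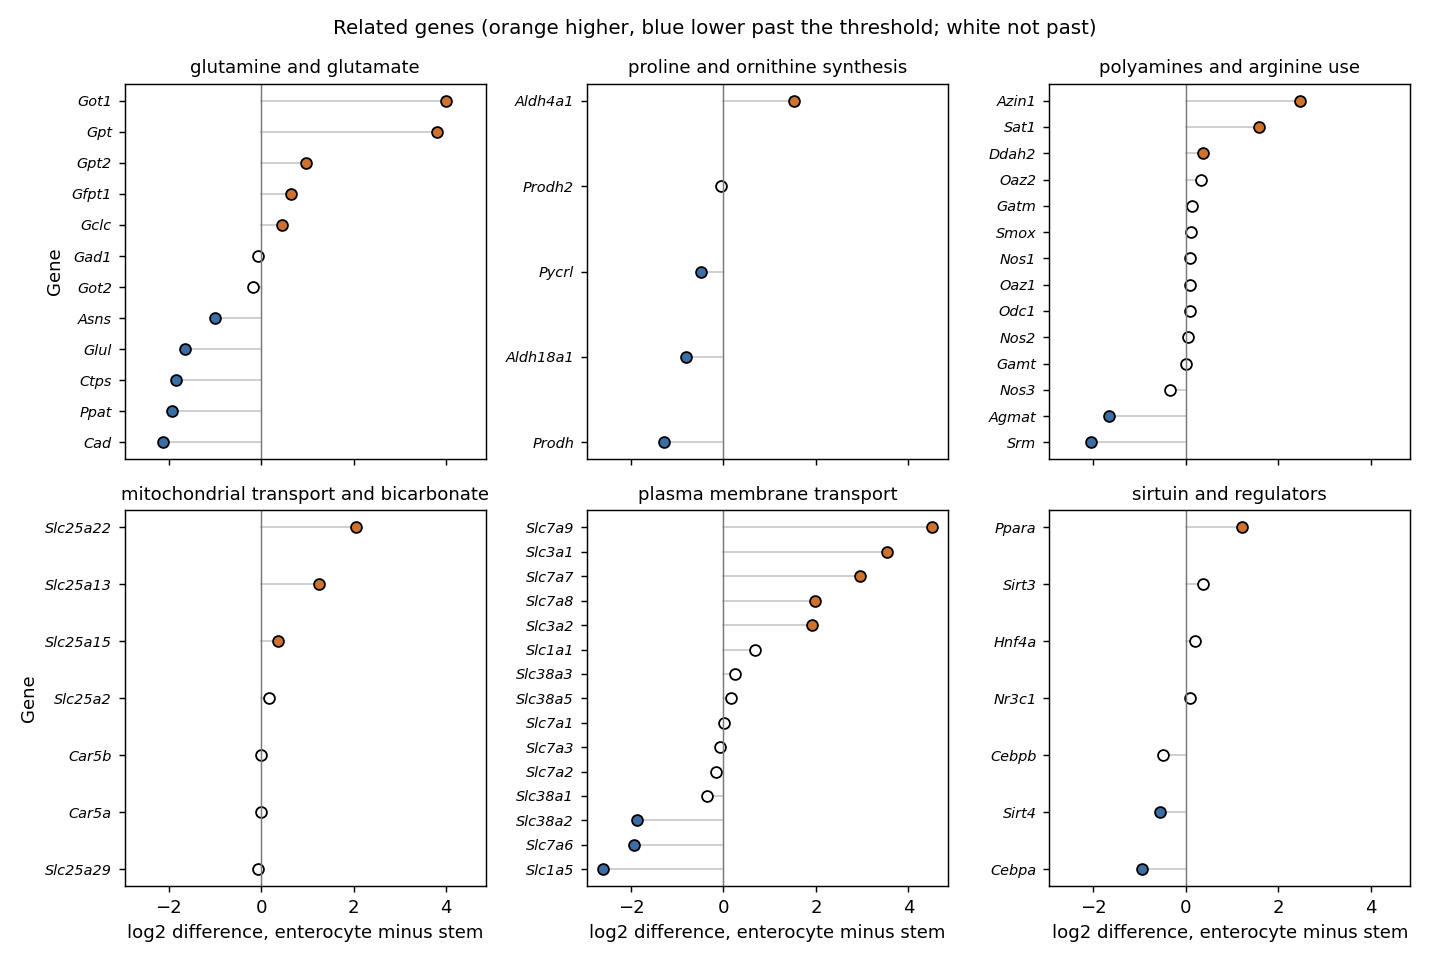
Log2 difference, enterocyte minus stem, of the measured genes in 6 related lists, orange for higher and blue for lower past the threshold and white for not past it. The largest rises are Slc7a9 (4.50), Got1 (4.00) and Gpt (3.80), and the largest falls are Slc1a5 (-2.60), Cad (-2.13) and Srm (-2.04).

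The genes most alike to Arg2, the member with the largest rise, were found by the distance between log2 profiles over the 4 arrays, each centred on its own mean. These were Npl, Selenop and Cst6 (distances 0.11, 0.12 and 0.15 log2 units), with differences of 4.41, 4.40 and 4.19. Npl was under the background level on both stem arrays (log2 4.50 and 4.09), so the size of its difference is uncertain. Cst6 was just under it on stem replicate 2 (log2 6.37). None are given for Arg1, the member with the most negative difference, since its values were under the background level on all 4 arrays. With 2 groups of 2 arrays, such likeness says little more than that the differences are of a similar size.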

How the data were processed

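RNA was measured in 4 samples, 2 per group, from 100 ng total RNA each. Each probe set has a deposited intensity that is already normalized and linear, from 7.93 to 41704 units. The submitters' processing notes name RMA and no version, and the normalization between arrays is not stated in the sources used here. No array column lacked a sample (0 columns).

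The intensities were put on the log2 scale without a pseudocount or a filter. Of 22690 probe sets (64 controls), 20380 had exactly 1 gene symbol, 691 had several and 1555 others had none. Entrez identifiers of 20351 matched the RefSeq table (GRCm38.p6). This left 12393 genes, each on its brightest probe set. Groups were compared in R 4.3.3 by the two-sided moderated test of limma 3.58.1 (lmFit, eBayes). P-values were adjusted over all genes by Benjamini-Hochberg, with a threshold of 0.05. The fit had 2 residual and 1.23 prior degrees of freedom. Replicates of both groups were identical in 209 genes, which lowers the spread seen. SE is limma's standard error of the log2 difference. The number of arrays limits the precision.

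The members, gene lists, marker lists and alternatives were chosen with earlier results of these data known. The rule for named genes took all measured members, up to 5 genes past the threshold with the largest difference in each related list, and a set named by role, of which Pycr1 and Sirt5 were among those not analysed here. Alternatives covered the choice of probe set, a filter on dim genes, a pseudocount of 16, scaling, the prior, array weights, the replicate block and each array left out.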

Additional observations from a re-analysis of the deposited data

How the results depend on the processing

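Of 84 alternative values of the 5 called members, 84 kept their direction and 63 stayed past the threshold. Much of the first count was fixed beforehand. The groups of these members did not overlap, so leaving out 1 array could not turn a sign. The replicate block, the prior, array weights and the filter on dim genes changed no log2 difference. Cps1, Oat, Arg1 and Nags have 1 probe set each, so the choice of probe set repeated their values. The 3 members not called gave 1 change of sign, Asl under quantile normalization (0.0939, adjusted p = 0.507 by limma). The count of higher members was 2 under every alternative tried except with 1 array left out, where it was 0 to 0 for each array. The count of lower members was 3 as deposited and 6 with arrays centred on the median of reference genes. Centring on reference gene differences, an alternative added with the data in view, also gave 6, with 65.4% of all genes lower. The mean over probe sets and quantile normalization each gave 4, beside 2768 and 2915 of 12393 genes. It was 2 with the dimmest probe set (1943 of 12393 genes) and 2 without genes below background in both groups (2920 of 7834). With 1 array left out, the log2 difference was -0.63 to -0.54 for Cps1, -1.35 to -0.86 for Oat and -1.38 to -1.20 for Arg1. Fewer arrays and residual degrees of freedom are part of that setting, and their part in the lost calls was not tested. Over all genes, centring on the median of reference genes gave 1251 higher and 9078 lower, and on reference gene differences 1582 and 8103. With the replicate block 2 members were higher and 3 lower, and 2010 and 2557 genes over all. Deviations of same-numbered arrays correlated at 0.0504 across genes, and the labels give the numbers no meaning beyond naming the samples. Oat and Arg1 are the weakest calls, Oat by its p and Arg1 by its intensity. Leaving out genes below background in both groups left Arg1 without a value. The number of arrays and, for Arg1, signal over background limit these results.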

Other observations

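Regulators of the pathway were listed apart. Of 7 measured genes 1 rose, 2 fell and 4 did not pass the test, against 18.2% and 22.4% of all genes. Under reference gene centring 1 was higher and 5 lower, beside 10.1% and 73.3% of all genes. Ppara, a nuclear receptor of fatty acid oxidation, read 303 and 307 on the stem arrays and 728 and 694 on the enterocyte arrays, a rise of 2.33-fold (1.22 ± 0.06 SE from 2 arrays in each group, adjusted p = 0.00337 by limma). Sirt4, a mitochondrial sirtuin known to restrain glutamate dehydrogenase, read 104 and 108 against 76.3 and 68.2, at least 1.27-fold lower (-0.55 ± 0.08 SE). Cebpa, a factor that drives urea cycle genes in liver, read 397 and 385 against 229 and 179, a fall of 1.93-fold (-0.95 ± 0.15 SE). Hnf4a, a nuclear receptor of intestine and liver, was bright and did not pass, at 8543 and 7636 on the stem and 9661 and 9034 on the enterocyte arrays (0.21 ± 0.09 SE, adjusted p = 0.175 by limma), and -0.49 under reference gene centring.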
